A study of Mus musculus with 115 samples.

Results

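The comparison described here was between 4 knockout hearts given the Ant1 vector (hearts 20, 21, 22 and 27, 20 libraries) and 3 knockout hearts given the control vector (hearts 35, 36 and 38, 18 libraries). Every mouse of both groups was a C57BL/6JEiJ animal labelled ANT1 -/-, so both groups lack the same gene. Each received 2.5e+11 vector genomes in the pericardium. The vector was AAV2/9Des-Gfp-mAnt1, which carries Gfp with mouse Ant1, in the Ant1 vector hearts, and AAV2/9Des-Gfp, which carries Gfp alone, in the control vector hearts. The members were found by genotype, vector label and barcode, and they make up 38 libraries, 33.9% of the bulk libraries, and 7 of the 22 hearts that the labels place in a group. Collection took place 1, 3, 6, 9 and 12 months after injection, but the labels do not tie a month or an age to a heart, and they do not spell out the element named Des. The number in a title was read as the heart.

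Ant1, the product of Slc25a4, is the main adenine nucleotide carrier of heart and skeletal muscle mitochondria. It sits in the inner membrane and exchanges ATP made in the matrix for ADP from the cytosol, and it is also a regulator of the permeability transition pore. Hearts without it are known for mitochondrial proliferation, hypertrophy and cardiomyopathy, and an adeno-associated virus of serotype 9 is commonly used to bring a gene back into heart muscle cells.

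RNA was read on an AmpliSeq mouse transcriptome panel, in which each gene is counted through 1 amplicon. Library totals ran between 2893780 and 8020110 counts in Ant1 vector knockout hearts, and between 3595093 and 8069457 counts in control vector knockout hearts. Libraries of 1 heart were summed, so a heart held at least 27100122 counts, and levels are given as CPM, the counts of a gene scaled to a library of 1e+06 counts. All 7 hearts held between 5943 and 10712 counts of the Y-linked gene Ddx3y and at most 2 counts of Xist. The summed level of 12 ventricular cardiomyocyte markers lay between 78542 and 82203 CPM in Ant1 vector knockout hearts and between 78327 and 80895 CPM in control vector knockout hearts, and no member of that list was at 0. The libraries of the 2 groups sit in different deposited tables of 8 libraries each, 6 for each group with 0 in common, so vector and table cannot be told apart from these 7 hearts alone. Within the Ant1 vector group, heart 27 shares no table with hearts 20, 21 and 22. Where heart 27 differs from those hearts, heart and table cannot be told apart either.

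The Ant1 vector hearts carried Slc25a4 transcript, at a small share of the wild type level. Slc25a4 (chromosome 8, 46207168 to 46211062, mm10) stood at 197.4 CPM in heart 20, 197.5 CPM in heart 21, 241 CPM in heart 22 and 174.3 CPM in heart 27, which received the Ant1 vector. Control vector knockout hearts held 2.03 CPM in heart 35, 0.617 CPM in heart 36 and 0.331 CPM in heart 38, from 62, 19 and 10 counts. The groups did not overlap, and the fitted log2 change was 7.67 ± 0.87 (SE, adjusted p = 0.000264). Set against the mean of 10392 CPM in 4 wild type hearts with the control vector, the Ant1 vector hearts lay between 1.68% and 2.32%. The 8 libraries of heart 27 spread between 72.1 and 270.2 CPM, whereas those of heart 21 stayed between 196.9 and 200.4 CPM. Libraries 27a to 27d, which share a table, held 96.07, 249.1, 270.2 and 226.5 CPM. Libraries 27e to 27h, in another table, held 139.96, 72.1, 122.35 and 144.5 CPM. Heart 37, a knockout heart with an ND6 change and the Ant1 vector, held 64.0 to 75.8 CPM in the former table and 24.6 to 46.1 CPM in the latter. The cause of this step between tables was not tested. The amplicon thus gave a signal with the Ant1 vector in knockout hearts. The sources used here do not say whether it reads vector and native transcripts equally well, so the share given is a share of counts.

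**Figure D1:**
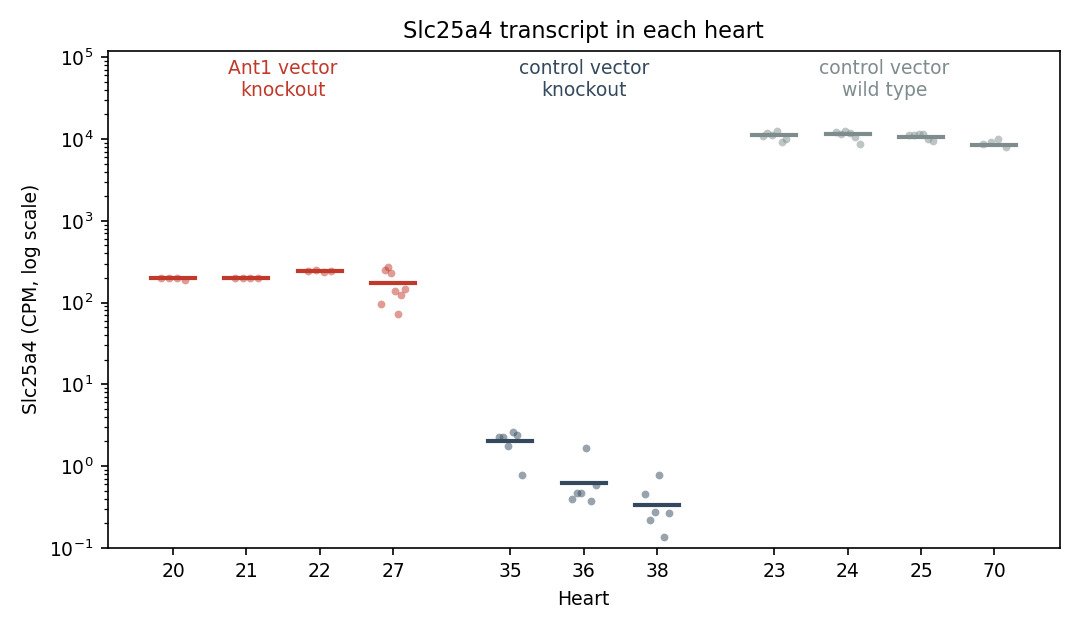
Slc25a4 in CPM on a log axis, with 1 point for each library and a bar at the summed level of each heart. Ant1 vector knockout hearts lie between 174.3 and 241 CPM, control vector knockout hearts between 0.331 and 2.03 CPM, and 4 control vector wild type hearts average 10392 CPM.

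Among the other carriers of adenine nucleotides, Slc25a42, which moves coenzyme A and adenine nucleotides across the inner membrane, fell to 114.9, 122.5, 127.7 and 162.5 CPM in Ant1 vector knockout hearts, against 192.9, 172.5 and 180.4 CPM in control vector knockout hearts. Its log2 change was -0.46 ± 0.12 (SE, adjusted p = 0.0278). That call was lost when any heart other than 27 was left out (adjusted p between 0.0614 and 0.093). Slc25a31, the testis-type carrier Ant4, stayed near the detection floor in both groups, at 0.98 to 1.54 CPM with the Ant1 vector and 1.397 to 1.60 CPM with the control vector (log2 change -0.21 ± 0.28, adjusted p = 0.715). The list of 7 tested carriers held 1 call in each direction (28.6% called, against 5.47% of all genes), and the rise was Slc25a4 itself. Slc25a5, which encodes the carrier Ant2, was not tested, so its level is not known here.

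Across the panel, 842 of 15403 tested genes (5.47%) differed between the vectors at an adjusted p under 0.05 in edgeR's quasi-likelihood test, 338 higher (2.19%) and 504 lower (3.27%) with the Ant1 vector. Most of these changes were small. The test gave 3351 genes at an unadjusted p under 0.05. The median log2 change was 0.54 among the higher genes and -0.42 among the lower ones, and 26 rises and 18 falls reached 2-fold. Hearts of the 2 groups did not overlap for 803 of the 842 genes, 318 higher and 485 lower, and for 18.2% of all tested genes (8.43% higher and 9.75% lower). The number of calls rests on the control vector hearts: it was 222 without heart 36, 227 without heart 38 and 415 without heart 35. Heart 27 lay nearest to the control vector mean (log2 CPM) for 280 of the 842 genes, more often than any other Ant1 vector heart, and 1050 genes passed without it. Without heart 20 the count was 489, and without heart 22 it was 477. With only the 2 compared groups in the fit 237 genes passed, and 679 after adjustment for library table, which took in 18.9% of the 842. Of 88 called genes that were followed through every alternative, 44 were not called with only the 2 compared groups in the fit, 42 after adjustment for library table, 21 from libraries a and b alone, and 56 without heart 36 or, likewise, without heart 38. Of the 88, 10 kept an adjusted p under 0.05 in all of them, among them Slc25a4, Agt, Ankrd2, Gpr22, Hk1, Myh7b, Ppp1r10, Pus10 and Tcap.

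**Figure D2:**
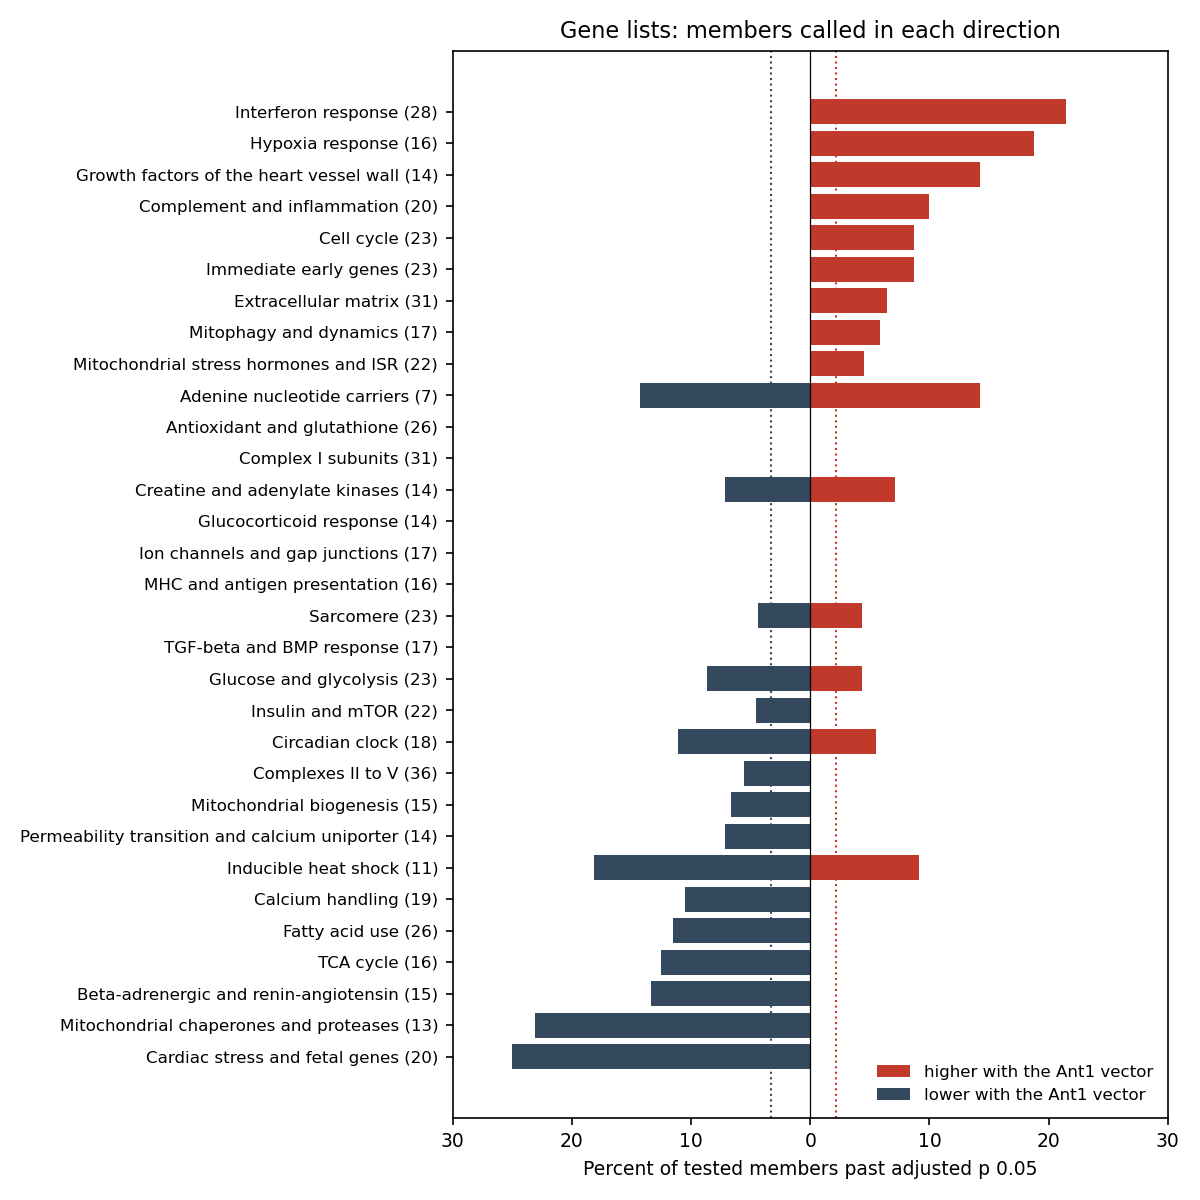
Percent of tested members of each gene list called lower (left, blue) or higher (right, red) with the Ant1 vector, with the number of tested members in brackets; dotted lines mark the 3.27% of all tested genes that were lower and the 2.19% that were higher. Cardiac stress and fetal genes (5 of 20) and mitochondrial chaperones and proteases (3 of 13) have the longest bars on the lower side, and interferon response (6 of 28) has the longest on the higher side.

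Some of the genes that heart muscle turns on under stretch and load fell. Of 20 tested cardiac stress and fetal genes, 5 fell and 0 rose (25.0% called, against 5.47% of all genes), while the median log2 change of the list was -0.06, against 0.01 for all genes. Without heart 36 the count was 3, and without heart 38 it was 2. Ankrd2, a stretch-responsive protein that binds titin, stood at 7.14, 3.30, 4.53 and 3.35 CPM in Ant1 vector knockout hearts and at 10.1, 11.0 and 13.3 CPM in control vector knockout hearts. It was 2.51-fold lower (log2 change -1.33 ± 0.26 SE, adjusted p = 0.00799), with no overlap, which the rule for the largest falls requires. Fhl2, a LIM-domain protein of the sarcomere, held 1142, 1201, 1222 and 1014 CPM with the Ant1 vector and 1452, 1869 and 1898 CPM with the control vector, a fall of 1.52-fold (adjusted p = 0.00565). Fhl1 (log2 change -0.50), Csrp3 (-0.30), which encodes the muscle LIM protein, and Xirp2 (-0.48), a protein of the intercalated disc, also fell, with adjusted p of 0.0258, 0.04 and 0.0423. These 3 calls were lost in several fits with a heart left out: Fhl1 without hearts 21 or 38, and Csrp3 and Xirp2 without hearts 21, 27, 35, 36 or 38 (highest adjusted p 0.213, 0.197 and 0.145). In the fit that adjusts for library table, Ankrd2 passed, and the log2 changes of Fhl2, Fhl1, Csrp3 and Xirp2 were -0.29, -0.29, -0.39 and -0.52 (adjusted p = 0.417, 0.32, 0.156 and 0.238).

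The classical natriuretic markers were not among the calls. Nppa, which encodes atrial natriuretic peptide, stood at 4358, 3648, 3564 and 3868 CPM in Ant1 vector knockout hearts and at 4126, 3395 and 3836 CPM in control vector knockout hearts (log2 change 0.03 ± 0.24, adjusted p = 0.963). Nppb, its B-type relative, held 2242, 1676, 1855 and 711 CPM with the Ant1 vector and 962, 1397 and 1512 CPM with the control vector (log2 change 0.33 ± 0.27, adjusted p = 0.512). Heart 27 had the lowest Nppb of the 7 hearts, and the other Ant1 vector hearts had the 3 highest, while for Nppa the groups overlapped. Ankrd1, the cardiac relative of Ankrd2, had a log2 change of -0.04 ± 0.17 (adjusted p = 0.927). Myh7, which was also to be named whatever its result, was not tested. Skeletal alpha-actin, Acta1, stood at 790.5, 459, 608 and 321 CPM with the Ant1 vector and at 673, 979 and 972 CPM with the control vector, so heart 20 reached into the control vector range (log2 change -0.68 ± 0.29, adjusted p = 0.165). Acta1 passed in the fit on single libraries that adjusts for library table (log2 change -2.25, adjusted p = 9.41e-15). So did Nppb in the other direction (0.74, adjusted p = 0.0252). Libraries of 1 heart enter that fit singly, so its p-values do not measure the spread between hearts alone.

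Among 23 sarcomere genes there were 1 rise and 1 fall (8.70% called, against 5.47% of all genes). Among 19 calcium-handling genes there were 2 falls (10.5% called). Tcap, which encodes the titin cap telethonin at the Z-disc, fell to 3783, 3647, 3748 and 3910.3 CPM in Ant1 vector knockout hearts, against 6715, 5984 and 6255 CPM in control vector knockout hearts. The Ant1 vector hearts lay close together and below every control vector heart, and the change was 1.68-fold (log2 change -0.74 ± 0.14 SE, adjusted p = 0.00592). Pln, whose product phospholamban holds back the SERCA calcium pump, fell to 235, 225, 243 and 194.3 CPM with the Ant1 vector, against 328, 379 and 377 CPM with the control vector (1.61-fold, adjusted p = 0.00899). Cacnb2, a subunit of the L-type calcium channel, had a log2 change of -0.48 (adjusted p = 0.0227). Myh7b, a slow-type myosin heavy chain, went the other way, at 133.7, 138.2, 126.2 and 97.0 CPM with the Ant1 vector and 44.97, 71.3 and 70.2 CPM with the control vector (log2 change 0.99 ± 0.18 SE, adjusted p = 0.00565). Tnni3, cardiac troponin I, was 1.23-fold higher (adjusted p = 0.0219). Cacnb2 lost its call without hearts 21, 22, 36 or 38 (highest adjusted p 0.101) and Tnni3 without hearts 20, 35 or 36 (highest 0.103), while Pln lost it after adjustment for library table (log2 change -0.28, adjusted p = 0.308).

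The renin-angiotensin system showed the deepest fall among the named genes. Agt encodes angiotensinogen, the precursor of angiotensin II, and Agtr1a its main receptor in the mouse heart. Agt stood at 5.46, 5.09, 5.22 and 5.99 CPM in Ant1 vector knockout hearts and at 30.9, 16.1 and 18.8 CPM in control vector knockout hearts, so the lowest control vector heart was well above every Ant1 vector heart. That the hearts do not overlap is required by the rule for the largest falls. The fall was 4.01-fold (log2 change -2.01 ± 0.31 SE, adjusted p = 0.00182). Agtr1a held 55.0, 64.3, 58.5 and 67.2 CPM with the Ant1 vector and 102.9, 98.1 and 93.3 CPM with the control vector, 1.60-fold lower (adjusted p = 0.0209). Wild type hearts with the control vector averaged 5.98 ± 1.60 CPM of Agt and 65.2 ± 7.39 CPM of Agtr1a (SD, n = 4). A comparison of knockout with wild type would share the control vector knockout hearts with the one reported, so these levels are only set side by side. They do not stand for other genes. The summed level of 11 skeletal muscle markers was 1109 to 1736 CPM in Ant1 vector knockout hearts and 1312 to 1642 CPM in control vector knockout hearts. In wild type hearts with the control vector it was 585 to 694 CPM. The other 13 tested members of the adrenergic and angiotensin list were not called (13.3% of the list called, against 5.47% of all genes). Agtr1a lost its call without hearts 20, 22, 35, 36 or 38 (adjusted p between 0.0531 and 0.0672).

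In glucose use and the steps that feed the TCA cycle, Hk1, Pfkfb1 and Dld were lower with the Ant1 vector and Pdk1 was higher. Hk1, hexokinase 1, fell to 133.05, 133.23, 122.4 and 102.98 CPM in Ant1 vector knockout hearts, against 165.5, 188.7 and 192.3 CPM in control vector knockout hearts (log2 change -0.57 ± 0.09 SE, adjusted p = 0.00182). Pfkfb1, which sets the level of the glycolytic activator fructose 2,6-bisphosphate, held 15.2, 17.2, 19.9 and 35.2 CPM with the Ant1 vector and 61.2, 45.4 and 54.2 CPM with the control vector (2.43-fold lower, adjusted p = 0.0203). Pdk1, a kinase that shuts down pyruvate dehydrogenase, rose 1.26-fold (adjusted p = 0.0264). With these calls, 1 of 23 glucose and glycolysis genes was higher and 2 were lower (13.0% called, against 5.47% of all genes). Dld, the dihydrolipoamide dehydrogenase shared by the pyruvate and 2-oxoglutarate dehydrogenase complexes, stood at 1274, 1293, 1326 and 1278 CPM with the Ant1 vector and 1769.5, 1789 and 1681 CPM with the control vector (log2 change -0.43 ± 0.07 SE, adjusted p = 0.00236). The spread within each group of hearts was small for Dld, and the groups did not overlap. Pfkfb1 lost its call without hearts 20, 22, 35 or 38 (highest adjusted p 0.0693), and Pdk1 without hearts 22, 36 or 38 (highest 0.104) or after adjustment for library table (0.413).

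In the respiratory chain, 0 of 31 complex I genes were called by edgeR and 0 by DESeq2. At an unadjusted p under 0.05, 2 were lower. The median log2 change was -0.09, with 22 negative, but it was 0.04 from libraries a and b alone and 0.17 after adjustment for library table. Of 36 genes of complexes II to V, 2 fell and 0 rose (5.56% called, against 5.47% of all genes). With library table adjusted for, none was called in either direction and the median log2 change was 0.19. Uqcrc2, a core subunit of complex III, held 2043, 2377, 2160.1 and 2318 CPM in Ant1 vector knockout hearts and 3209, 3421 and 3399.8 CPM in control vector knockout hearts, a fall of 1.503-fold (log2 change -0.59 ± 0.12 SE, adjusted p = 0.00831). Sdhd, a membrane anchor of complex II, fell 1.23-fold (adjusted p = 0.0237). Tefm, the elongation factor of mitochondrial transcription, stood at 27.7, 26.2, 27.5 and 25.4 CPM with the Ant1 vector and 35.1, 40.5 and 39.2 CPM with the control vector (log2 change -0.52 ± 0.09 SE, adjusted p = 0.00293). It was the 1 call among 15 mitochondrial biogenesis genes (6.67% called, close to the 5.47% of all genes). The fitted changes of Dld, Uqcrc2 and Tefm after adjustment for library table were -0.09, -0.04 and -0.36, with adjusted p of 0.872, 0.963 and 0.321. Sdhd lost its call without hearts 21, 22, 36 or 38 (highest adjusted p 0.105) and after that adjustment (0.814).

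Fatty acid use had 3 falls and 0 rises among 26 genes (11.5% called, against 5.47% of all genes). They were Acsl1 (log2 change -0.37, adjusted p = 0.0232), which activates long-chain fatty acids, the uncoupling protein gene Ucp3 (-0.89, adjusted p = 0.0427) and the fatty acid transporter gene Cd36 (-0.37, adjusted p = 0.0478). Ucp3 stood at 71.9, 67.5, 90.1 and 163.3 CPM in Ant1 vector knockout hearts and at 227, 185.5 and 133.7 CPM in control vector knockout hearts, and heart 27 lay inside the control vector range. The AMP-activated kinase subunit gene Prkaa2 held 131.8, 127.7, 129.8 and 124.5 CPM with the Ant1 vector and 154.02, 167.3 and 161.6 CPM with the control vector (adjusted p = 0.0133). It was the 1 call among 22 insulin and mTOR genes (4.55% called, against 5.47% of all genes). Mcur1, a regulator of the mitochondrial calcium uniporter, fell 1.35-fold (adjusted p = 0.0129), the 1 call among 14 genes of the uniporter and the permeability transition (7.14% called). Acsl1 lost its call without hearts 20, 36 or 38, Ucp3 without any heart but 27, Cd36 without any heart but 20, Prkaa2 without hearts 36 or 38 and Mcur1 without heart 36, with highest adjusted p of 0.089, 0.167, 0.139, 0.0622 and 0.082. Among 14 creatine and adenylate kinase genes (14.3% called), Ckm, the muscle creatine kinase, rose (adjusted p = 0.0152) and Ckmt2, the mitochondrial one, fell (0.047). Ckm lost its call without heart 36 (0.0978), and Ckmt2 without hearts 21, 22, 35, 36 or 38 (highest 0.137). Adjusting for library table, Cd36, Prkaa2, Mcur1, Ckm and Ckmt2 had adjusted p of 0.668, 0.758, 0.0571, 0.986 and 0.824.

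Protein quality control genes changed in both directions. Hspa9 and Hspe1, the mitochondrial Hsp70 and the partner of Hsp60, fell 1.27-fold and 1.42-fold (adjusted p = 0.0111 and 0.0151), and with the protease gene Yme1l1 they made 3 falls and 0 rises among 13 mitochondrial chaperones and proteases. Of that list 23.1% was called, against 5.47% of all genes, and it held 1 fall without heart 36 or without heart 38. Yme1l1 (log2 change -0.33, adjusted p = 0.0477) lost its call without any heart but 21 (highest adjusted p 0.23), and its log2 change was 0.04 after adjustment for library table. Of 11 heat shock genes, 1 rose and 2 fell (27.3% called), among them Hspb6 (adjusted p = 0.0264), which was lost without hearts 21, 36 or 38 (highest 0.117). Hspb7, a small heat shock protein of heart muscle, held 3727, 3649, 4002 and 3427 CPM in Ant1 vector knockout hearts and 5146, 5572 and 4672 CPM in control vector knockout hearts (log2 change -0.47 ± 0.08 SE, adjusted p = 0.00472). From libraries a and b alone, Hspb7 and Hspb6 were not called (adjusted p = 0.0615 and 0.244). Bag3, a co-chaperone that serves Hsp70 and chaperone-assisted autophagy at the Z-disc, stood at 8.57, 10.6, 13.1 and 9.08 CPM with the Ant1 vector and 4.51, 6.11 and 4.23 CPM with the control vector (2.08-fold higher, adjusted p = 0.0123). Bag3 lost its call without heart 38 (adjusted p = 0.0679) and Hspe1 without hearts 36 or 38 (highest 0.0889). After adjustment for library table, Hspa9, Hspe1 and Bag3 had adjusted p of 0.766, 0.607 and 0.56.

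Gdf15, a secreted hormone of mitochondrial and integrated stress, differed among the Ant1 vector hearts themselves. It stood at 42.9, 24.7 and 30.6 CPM in hearts 20, 21 and 22, but at 5.29 CPM in heart 27, which also received the Ant1 vector. Control vector knockout hearts held 4.97, 5.75 and 5.88 CPM, so heart 27 lay inside their range and the other Ant1 vector hearts lay above it. Heart 27 shares no library table with hearts 20, 21 and 22, so heart and table cannot be told apart in this difference. The group change was 4.64-fold higher (log2 change 2.21 ± 0.47 SE, adjusted p = 0.0119). It was lost without heart 36 (adjusted p = 0.0543) or heart 38 (0.0506). It was the 1 call among 22 genes of mitochondrial stress hormones and the integrated stress response (4.55% called, against 5.47% of all genes). Atf3, a transcription factor of that response, had a log2 change of 1.37 (adjusted p = 0.0587).

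**Figure D3:**
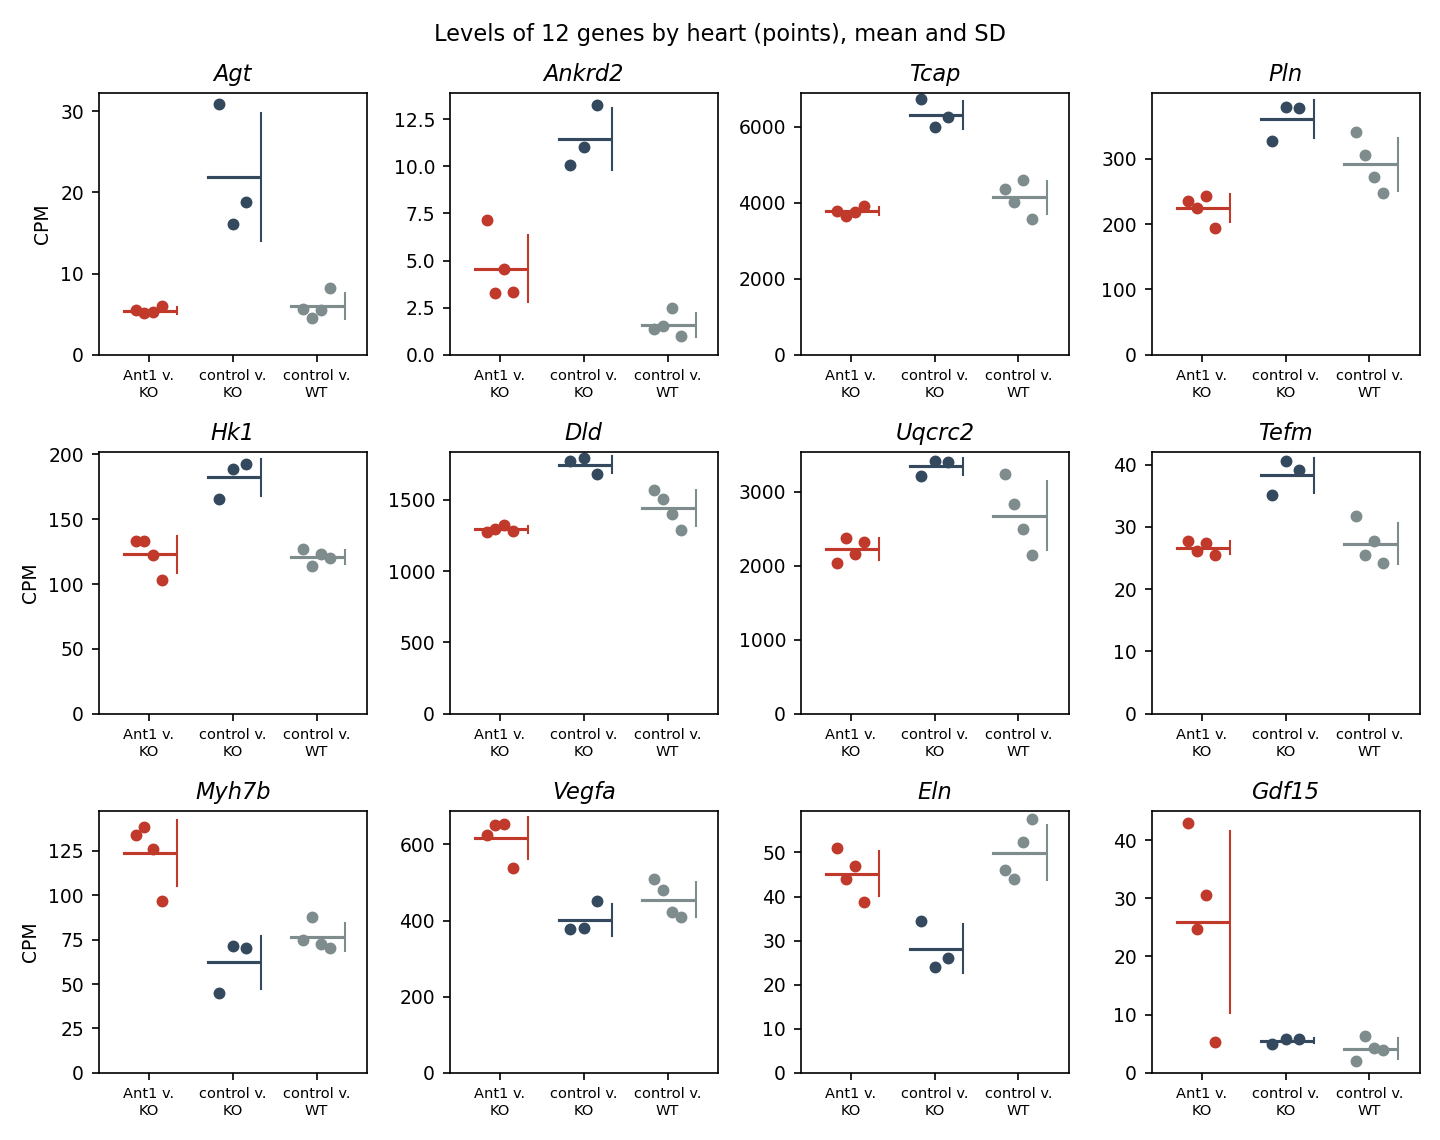
Levels of 12 genes in CPM in each heart, with 4 Ant1 vector knockout hearts (red), 3 control vector knockout hearts (dark blue) and 4 control vector wild type hearts (grey); horizontal bars are means and vertical bars SD. Agt averages 5.44 CPM in Ant1 vector knockout hearts, 21.9 CPM in control vector knockout hearts and 5.98 CPM in wild type hearts, and the Gdf15 point of heart 27 sits at 5.29 CPM, below the other Ant1 vector hearts.

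Several interferon-stimulated genes rose with the Ant1 vector. Of 28 tested, 6 rose and 0 fell (21.4% called, against 5.47% of all genes). A positive log2 change was found in 27, and the median was 0.36, against 0.01 for all genes. The count rested on the control vector hearts, with 0 calls without heart 36 and 1 without heart 38, and medians of 0.44 and 0.26. At an unadjusted p under 0.05, 16 were higher and 0 lower. Interferons act through STAT and IRF factors, which bind the interferon-stimulated response element of their target genes. The letters of that element, 2 runs of GAAA with 2 bases of any kind between them, were read on both strands with overlaps allowed and searched in the 250 bases before the start of each gene, taken from RefSeq on GRCm38.p6. They occur in 11 of the 22 listed genes that have a window, in 3 of the 5 called ones and in 2.73% of the 11537 tested genes with a window. The windows of the 3 called genes that hold a match follow 5′ to 3′ on the strand of the gene, with the matched bases in capitals, to show where these letters lie.
Gbp5: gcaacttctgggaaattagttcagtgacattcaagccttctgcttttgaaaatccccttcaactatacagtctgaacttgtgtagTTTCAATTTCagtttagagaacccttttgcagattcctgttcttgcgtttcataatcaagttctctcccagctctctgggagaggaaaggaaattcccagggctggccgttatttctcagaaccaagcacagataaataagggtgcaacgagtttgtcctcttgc
Gbp2: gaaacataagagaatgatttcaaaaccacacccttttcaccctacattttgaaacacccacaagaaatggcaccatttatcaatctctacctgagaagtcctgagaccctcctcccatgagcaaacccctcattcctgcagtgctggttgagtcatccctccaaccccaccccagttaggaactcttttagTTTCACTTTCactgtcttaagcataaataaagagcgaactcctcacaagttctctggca
Bst2: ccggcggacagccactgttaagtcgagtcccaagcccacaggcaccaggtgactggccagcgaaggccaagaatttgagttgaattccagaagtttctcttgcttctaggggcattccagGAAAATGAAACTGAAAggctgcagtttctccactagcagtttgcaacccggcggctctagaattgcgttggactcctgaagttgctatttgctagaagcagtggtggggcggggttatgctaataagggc
The Gbp5 window is chr3:142496684-142496933 on the plus strand, the Gbp2 window is chr3:142620413-142620662 on the plus strand and the Bst2 window is chr8:71537473-71537722 on the minus strand. The match is on the opposite strand in Gbp5 and in Gbp2, where it begins 59 bases before the start, and Bst2 holds 2 overlapping matches that begin 130 and 124 bases before its start. The heat shock element, read as GAA, TTC and GAA with 2 bases between each, was found in 0 of 9 heat shock gene windows and in 0.303% of those of tested genes. The MEF2 site, read as CTA and TAG with 4 bases between them, was found in 1 of 17 stress and fetal gene windows, that of Xirp2, and in 2.96% of those of tested genes. A match is a description of these letters and says nothing of what is bound there.

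Gbp4, an interferon-induced GTPase, stood at 26.8, 20.0, 34.7 and 19.4 CPM in Ant1 vector knockout hearts and at 14.5, 11.4 and 11.2 CPM in control vector knockout hearts (2.03-fold higher, adjusted p = 0.0111). Gbp5, of the same family, held 12.5, 10.2, 14.5 and 13.6 CPM with the Ant1 vector and 8.63, 6.76 and 6.68 CPM with the control vector (1.73-fold higher, adjusted p = 0.0108). Irf9, the DNA-binding part of the interferon-activated complex ISGF3, rose 1.43-fold (adjusted p = 0.013). Gbp2 (1.74-fold), the tetherin gene Bst2 (1.54-fold) and Oasl2 (1.53-fold), an oligoadenylate synthetase-like gene, rose with adjusted p of 0.037, 0.03 and 0.0433. Members of the guanylate-binding family are close in sequence, and the sources used here do not say how their reads were shared out. All 16 tested MHC and antigen presentation genes had a positive log2 change with a median of 0.41, but 0 passed in edgeR's test. DESeq2 called 2, and 8 were higher at an unadjusted p under 0.05. H2-K1, a classical class I chain, came closest (log2 change 0.47, adjusted p = 0.0619). Casp4, which encodes the inflammatory caspase-11, held 10.9, 7.25, 8.73 and 4.82 CPM with the Ant1 vector and 3.79, 3.51 and 4.23 CPM with the control vector (2.05-fold higher, adjusted p = 0.0108). Every one of these calls was lost without heart 36 (adjusted p between 0.0556 and 0.188), and those of Gbp4, Gbp5, Gbp2, Bst2 and Oasl2 also without heart 38 (between 0.0571 and 0.153). Gbp2 and Bst2 further lost theirs without hearts 22 or 35, Gbp2 without heart 21, Bst2 without heart 20, and Oasl2 without hearts 20, 22, 27 or 35. In the fit that adjusts for library table, Gbp5, Irf9, Oasl2 and Casp4 had adjusted p of 0.0912, 0.801, 0.665 and 0.19.

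Markers of blood cells in the hearts stood as follows. The summed level of 13 macrophage markers lay between 388 and 528 CPM in Ant1 vector knockout hearts and between 374 and 553 CPM in control vector knockout hearts, with 6 of 12 tested members positive in log2 change. The sum of 10 T and NK cell markers lay between 3.01 and 9.48 CPM with the Ant1 vector and between 2.91 and 4.39 CPM with the control vector, and that of 6 B cell markers between 3.53 and 65.6 CPM and between 7.44 and 17.5 CPM. Hearts 21 and 27 had the most B cell transcript, 65.6 and 40.3 CPM. All 8 tested T and NK cell markers and all 6 B cell markers had a positive log2 change, with medians of 0.98 and 1.15. No member of the 3 lists was at 0 in all 7 hearts, and their part in the interferon result was not tested. In tissue RNA of this kind, fewer cells of a type and less RNA in each of its cells cannot be told apart.

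**Figure D4:**
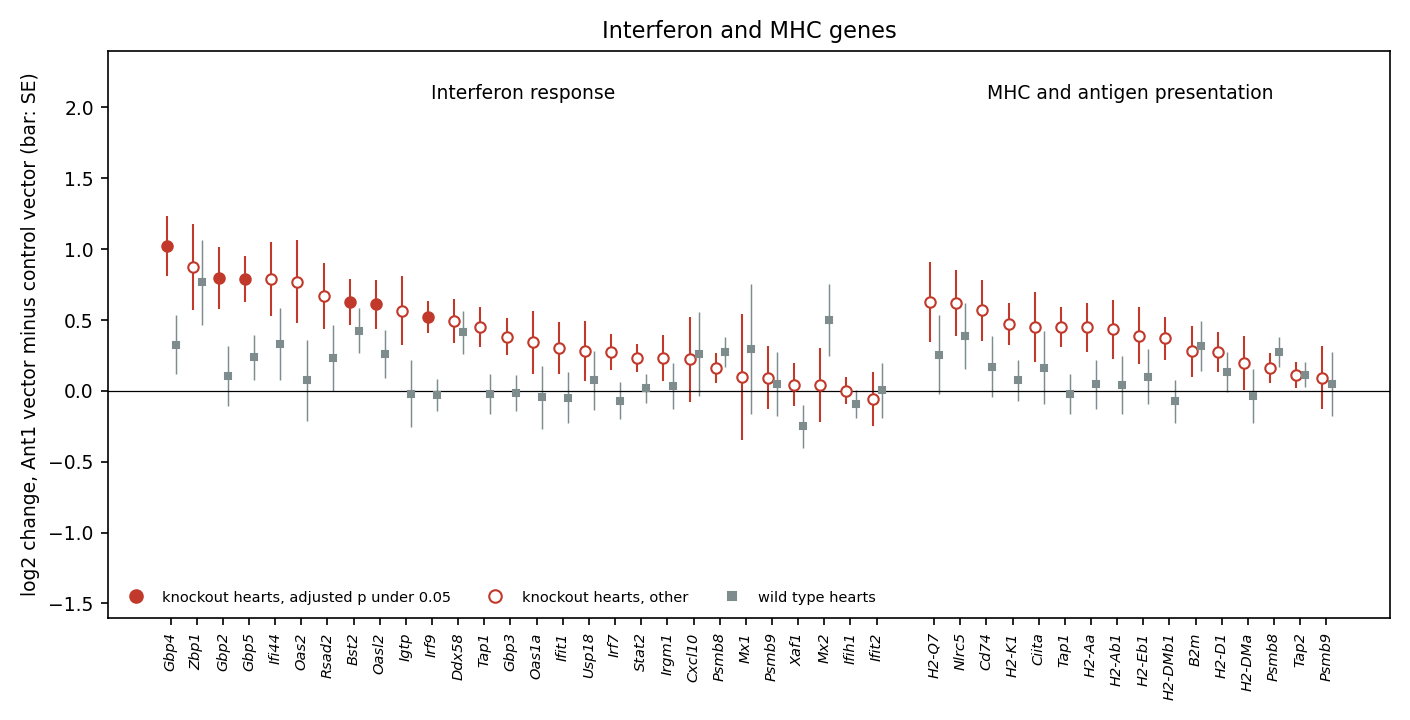
Log2 change between vectors for 28 interferon response genes and 16 MHC genes, with SE; circles are knockout hearts, filled where the adjusted p is under 0.05, and grey squares are wild type hearts. In knockout hearts 27 of 28 and 16 of 16 changes are above 0, with medians of 0.36 and 0.41, and in wild type hearts the medians are 0.08 and 0.11.

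Several genes of the vessel wall rose. Vegfa, the main growth factor of endothelial cells, stood at 624, 651, 653 and 538 CPM in Ant1 vector knockout hearts and at 377, 379 and 450.4 CPM in control vector knockout hearts (1.53-fold higher, log2 change 0.62 ± 0.13 SE, adjusted p = 0.0117). Angpt2, a ligand of the endothelial receptor Tie2, was low throughout, at 2.73, 3.48, 2.92 and 1.21 CPM with the Ant1 vector and 0.85, 1.04 and 0.992 CPM with the control vector (2.64-fold higher, adjusted p = 0.018). These were the 2 calls among 14 vessel growth factor genes (14.3%, against 5.47% of all genes). Vegfa, Bnip3 and Pdk1 were the 3 rises, with 0 falls, among 16 hypoxia response genes (18.8% called). The endothelial markers Pecam1 and Eng rose 1.59-fold and 1.42-fold (adjusted p = 0.0236 and 0.0269). They were 2 of 12 endothelial markers (16.7%), of which 11 had a positive log2 change with a median of 0.25. That median was -0.06 once library table was adjusted for, with 1 rise and 2 falls, and 0 were called without heart 36 or without heart 38. The summed marker level lay between 1665 and 1882 CPM with the Ant1 vector and between 1585 and 1711 CPM with the control vector. The part of endothelial cell number in these rises was not tested. Vegfa lost its call without heart 36 (adjusted p = 0.0597), Angpt2 without hearts 35, 36 or 38 (highest 0.0673), Pecam1 without hearts 36 or 38 (highest 0.14), Eng without hearts 20, 35, 36 or 38 (highest 0.11) and Bnip3 without hearts 36 or 38 (highest 0.0637). Adjusting for library table, Pecam1 and Bnip3 had adjusted p of 0.18 and 0.0819.

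The extracellular matrix had 2 rises and 0 falls among 31 genes (6.45% called, close to the 5.47% of all genes), of which 27 had a positive log2 change with a median of 0.16. After adjustment for library table the median was -0.15, with 2 rises and 4 falls, and 0 genes were called without heart 36 or without heart 38. Eln, which encodes elastin, stood at 51.1, 44.0, 46.9 and 38.8 CPM in Ant1 vector knockout hearts and at 34.5, 24.0 and 26.0 CPM in control vector knockout hearts (1.60-fold higher, adjusted p = 0.0117). Col6a2, a chain of collagen VI, was 1.26-fold higher (adjusted p = 0.0278). Adam19, a membrane metalloprotease needed for heart development, held 38.1, 45.1, 31.8 and 30.5 CPM with the Ant1 vector and 15.6, 24.1 and 18.3 CPM with the control vector (1.88-fold higher, adjusted p = 0.0117). Fibroblast markers had 1 rise among 11 (9.09% called), Gsn, and their summed level lay between 2372 and 2699 CPM with the Ant1 vector and between 2013 and 2432 CPM with the control vector. The part of fibroblast number was not tested. Eln lost its call without hearts 36 or 38 (highest adjusted p 0.0772), Adam19 without hearts 35 or 38 (highest 0.057), Gsn without heart 38 (0.0854) and Col6a2 without hearts 20, 21, 35, 36 or 38 (highest 0.108). Col6a2 had an adjusted p of 0.912 after that adjustment. Of 17 TGF-beta and BMP response genes, 0 were called by edgeR and 3 by DESeq2, and 6 were higher at an unadjusted p under 0.05.

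Several of the widest changes fell outside these lists. Gpr22, an orphan receptor of heart muscle, stood at 12.8, 11.6, 10.5 and 18.6 CPM in Ant1 vector knockout hearts and at 30.2, 22.7 and 30.9 CPM in control vector knockout hearts (2.07-fold lower, adjusted p = 0.00715). Pus10, a pseudouridine synthase, held 13.7, 12.2, 13.4 and 15.4 CPM with the Ant1 vector and 29.1, 20.9 and 25.3 CPM with the control vector (1.83-fold lower, adjusted p = 0.000689). Ppp1r10, a nuclear regulator of protein phosphatase 1, stood at 30.1, 50.3, 49.0 and 49.0 CPM with the Ant1 vector and at 86.1, 77.1 and 80.1 CPM with the control vector (1.82-fold lower, adjusted p = 0.00332). In these 3 genes every Ant1 vector heart lay below every control vector heart, which the rule that named them requires. Trem2, a receptor of macrophages, was 1.95-fold lower (adjusted p = 0.0101) at 2.37 to 2.77 CPM with the Ant1 vector and 4.42 to 5.75 CPM with the control vector, beside the macrophage marker sums given above. Map2k6, a kinase that activates p38, was 1.83-fold lower (adjusted p = 0.00831), and Mpv17l 2.01-fold lower (adjusted p = 0.00757).

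On the side of the rises, Fam13a stood at 25.4, 19.6, 28.1 and 19.5 CPM in Ant1 vector knockout hearts and at 13.0, 9.58 and 13.5 CPM in control vector knockout hearts (1.92-fold higher, adjusted p = 0.00408). Aacs, which activates the ketone body acetoacetate, held 5.39, 7.47, 8.62 and 9.34 CPM with the Ant1 vector and 3.63, 2.34 and 3.57 CPM with the control vector (2.43-fold higher, adjusted p = 0.0186). Nr4a3, an orphan nuclear receptor and immediate early gene, stood at 12.4, 31.8, 25.2 and 18.1 CPM with the Ant1 vector and 3.89, 7.47 and 8.83 CPM with the control vector (3.24-fold higher, adjusted p = 0.0314). With Myc it made 2 rises and 0 falls among 23 immediate early genes (8.70% called, against 5.47% of all genes), with a median log2 change of 0.19. The list held 0 calls without heart 36 or without heart 38. The fit adjusted for library table gave 0 rises, 16 falls and a median of -1.78. That fit ties the tables of the vectors together only through knockout ND6 hearts with the control vector label and the Ant1 title code. It cannot separate a table effect from differences between those hearts and the other knockout ND6 Ant1 vector hearts. Between the vectors in knockout ND6 hearts, this list had 16 rises, 0 falls and a median of 1.60. Whether the 16 falls come from knockout hearts was not tested. Aacs lost its call without hearts 36 or 38 (highest adjusted p 0.104), Nr4a3 without hearts 21, 22, 35, 36 or 38 (highest 0.12) and Myc without hearts 20, 36 or 38 (highest 0.142). After adjustment for library table, Fam13a, Nr4a3, Myc, Mpv17l and Trem2 had adjusted p of 0.108, 0.0546, 0.669, 0.295 and 0.153. With only the 2 compared groups in the fit, the adjusted p of Map2k6 was 0.0517, and from libraries a and b alone that of Trem2 was 0.0575.

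Whether the vectors differed in the same way in hearts that have Ant1 of their own was asked through wild type hearts, 3 with AAV2/9Des-Gfp-mAnt1 and 4 with AAV2/9Des-Gfp, in the same fit. There 18 genes (0.117%) differed between the vectors, 8 higher and 10 lower, and 2 of the 842 knockout genes were among them. The test of the difference between the genotypes found 77 genes (0.500%), 34 with a more positive and 43 with a more negative change in knockout hearts, and 58 of the 77 were called in knockout hearts. For Myh7b the log2 change was 0.99 in knockout and -0.45 in wild type hearts, a difference of 1.44 ± 0.26 (SE, adjusted p = 0.0136). Ppp1r10 had -0.86 in knockout and 0.53 in wild type hearts, a difference of -1.39 (adjusted p = 0.00488), and Arhgap32 had -0.72 and 0.70, a difference of -1.42 (adjusted p = 0.0117). Eln had 0.68 in knockout and -0.56 in wild type hearts (difference 1.24, adjusted p = 0.0117). Hspb7 had -0.47 and 0.24 (difference -0.71, adjusted p = 0.0117). For Agt, which had -2.01 in knockout and -0.37 in wild type hearts, the difference missed the threshold (-1.63, adjusted p = 0.0917), as it did for Tcap (-0.77, 0.0785), Hk1 (-0.49, 0.0667) and Vegfa (0.76, 0.0628). These misses do not show that the genotypes acted alike. In knockout hearts alone, the call of Arhgap32 was lost without hearts 22, 35 or 36 (highest adjusted p 0.0638). From libraries a and b alone, the genotype difference was not called for Myh7b or Hspb7 (adjusted p = 0.0525 for each). The difference for Myh7b was also lost without wild type Ant1 vector heart 81 (adjusted p = 0.0577), and the count of 77 ran between 15, without wild type heart 81, and 172, without knockout heart 27.

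**Figure D5:**
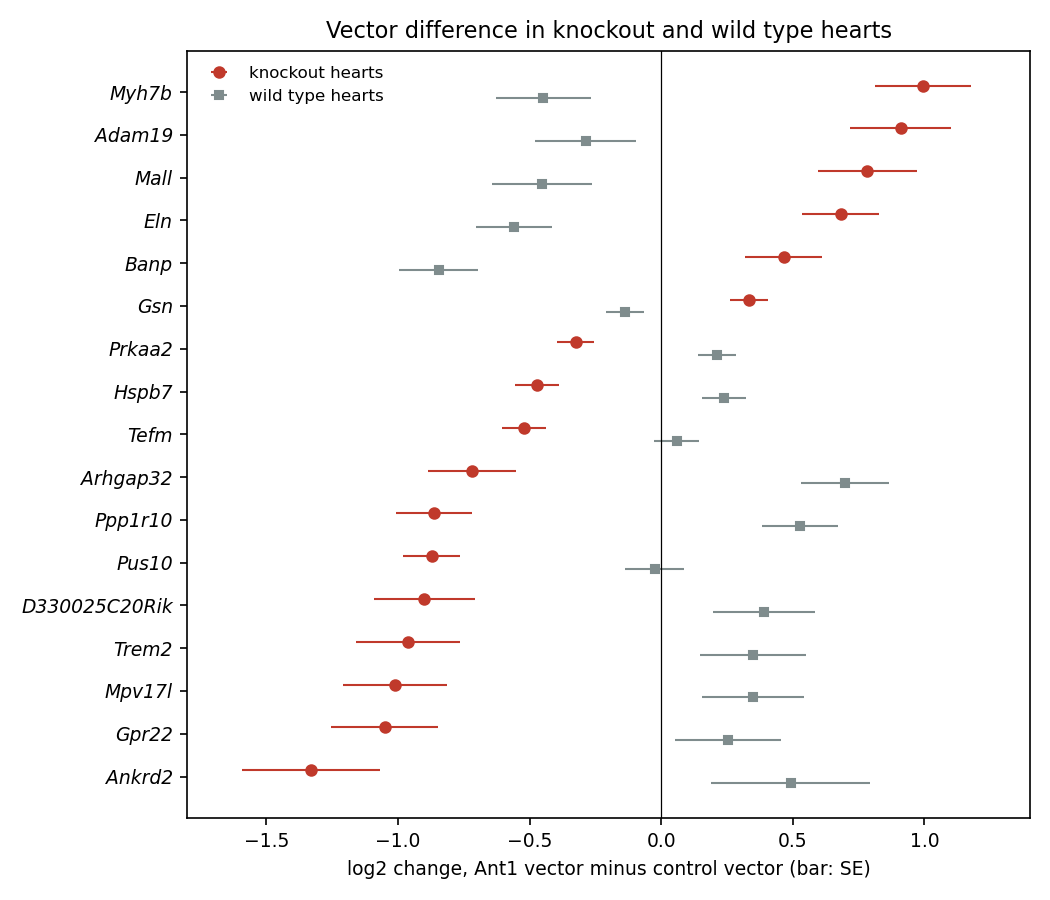
Log2 change between vectors, with SE, in knockout hearts (red circles) and wild type hearts (grey squares) for the 17 named genes, Slc25a4 left out, whose change differed between the genotypes at an adjusted p under 0.05. Myh7b sits at 0.99 in knockout and -0.45 in wild type hearts, and Ankrd2 at -1.33 and 0.49.

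The same contrast in hearts that lack Ant1 and carry the ND6 P25L change in mitochondrial DNA, 3 with each vector, gave 390 genes (2.53%), 270 higher (1.75%) and 120 lower (0.779%). Of the 842 knockout genes 46 were among them, 38 in the same direction, which is 4.51% of the knockout genes and 9.74% of the knockout ND6 genes. The test of the difference found 219 genes (1.42%), 95 more positive and 124 more negative in knockout hearts. Hearts 61 and 91 of that genotype, which have the control vector in the label but the Ant1 code in the title, were left out of it. Their 8 libraries held 145.61 to 182.3 CPM of Slc25a4, against at most 1.35 CPM in the 16 knockout ND6 control vector libraries, so the gene went with the title code. With both counted as Ant1 vector hearts, 27 genes differed in place of 219. The knockout ND6 Ant1 vector heart numbered 8 held 0.732 CPM of Slc25a4, a level like that of control vector hearts. All 16 knockout ND6 Ant1 vector libraries held between 0.565 and 75.8 CPM. Libraries of knockout Ant1 vector hearts held 72.06 to 270.2 CPM, and those hearts 174.3 to 241.4 CPM. The 2 contrasts thus differ in Slc25a4 level as well as in ND6, and the part of each was not tested. Agt had a log2 change of -2.01 in knockout and 0.47 in knockout ND6 hearts (difference -2.47, adjusted p = 0.0105), and Gdf15 2.21 and -1.19 (difference 3.41, adjusted p = 0.0127). Pus10 had -0.87 and 0.27 (difference -1.14, adjusted p = 0.00196), and Ppp1r10 -0.86 and 0.34 (difference -1.20, adjusted p = 0.00929). With hearts 61 and 91 as Ant1 vector hearts, the differences of Agt, Pus10 and Ppp1r10 still passed (adjusted p = 0.0234, 0.0104 and 0.0464) and that of Gdf15 did not (0.0553).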

How the data were processed

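The bulk libraries were AmpliSeq mouse transcriptome libraries, deposited by the authors as raw counts for 23930 amplicons. The submitters' processing notes name the build mm10, and no source used here names the aligner or counter. Date-like entries were returned to the 27 gene symbols they stood for. Libraries that share a title number, genotype and code were summed into 1 heart. Reading the number as a heart is an interpretation. In the edgeR and DESeq2 fits, p-values measure the spread between these hearts. A single fit of all 22 hearts (7 groups) was made with edgeR 4.0.16 under R 4.3.3, using filterByExpr, TMM factors and the quasi-likelihood F-test, and 15403 genes were tested. Benjamini-Hochberg adjustment ran over all of them with a threshold of 0.05. Levels are CPM, and log2 changes are those of the edgeR fit with its default prior count. The members and gene lists were chosen with earlier results of these data known. Named genes were the 15 largest rises and falls with non-overlapping hearts and at least 5 CPM, the 5 largest on each side of each genotype difference, 10 fixed genes, and up to 6 members of each list by adjusted p. Alternatives used DESeq2 1.42.0 and limma 3.58.1 (voom on single libraries, adjusted for library table, with hearts as a random block). That last fit ties the tables together through hearts 61 and 91, taken as Ant1 vector hearts by title code, and the correlation within a heart was 0.176. Its p-values come from single libraries, so they do not measure the spread between hearts alone. It cannot separate a table effect from differences between hearts 61 and 91 and the other knockout ND6 Ant1 vector hearts. Promoter windows came from RefSeq. Libraries 80a and 80b have the title number and codes of wild type Ant1 vector heart 80 but were assigned to no group. They and 3 single-nucleus samples were not analysed here. Heart 80 was read from libraries 80c and 80d, also in the fits from libraries a and b alone. Not every gene that met the naming rule is described.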

Additional observations from a re-analysis of the deposited data

Results flagged for a closer look

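In 5 of 97 genes examined, 1 Ant1 vector knockout heart stood far from the other 3 by Dixon's criterion for 4 samples, and chance alone marks about 1 group in 20. Heart 27 held 1.53 CPM of Lrrc10b (others 4.09 to 4.50 CPM), 47.7 CPM of Gadd45b (15.8 to 18.7 CPM) and 21.3 CPM of Arhgap32 (14.9 to 15.8 CPM). Heart 20 held 30.1 CPM of Ppp1r10 (49.0 to 50.3 CPM), and heart 22 held 31.3 CPM of Mylk (36.8 to 37.6 CPM). Heart 27 shares no library table with the other Ant1 vector knockout hearts, so for its genes heart and table cannot be told apart.

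For other genes the vector change differed between genotypes by the test of the difference itself (adjusted p under 0.05), given as the log2 change in knockout hearts minus that in wild type hearts. It was positive for Slc25a4 (7.75), Myh7b (1.44), Banp (1.31), Eln (1.24), Mall (1.24), Adam19 (1.197) and Gsn (0.47). It was negative for Ankrd2 (-1.82), Arhgap32 (-1.42), Ppp1r10 (-1.39), Mpv17l (-1.36), Trem2 (-1.31), Gpr22 (-1.30), D330025C20Rik (-1.29), Pus10 (-0.85), Hspb7 (-0.71), Tefm (-0.58) and Prkaa2 (-0.54). Of these 18 genes, 6 passed in every fit with a heart left out. Slc25a4 is among the 6, but it is the gene the vector delivers and only wild type hearts had it beforehand. Its difference was therefore fixed by the design.

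Against knockout ND6 hearts the difference was positive for Gdf15 (3.41), Angpt2 (2.08), Aacs (1.80), Banp (1.68), S1pr4 (1.29), Rab30 (1.28), Cmpk2 (1.22), Mall (1.14) and Gsn (0.42). It was negative for Gadd45b (-2.61), Agt (-2.47), Ucp3 (-1.90), Zc3h6 (-1.77), Ankrd2 (-1.67), Impa2 (-1.38), Ppp1r10 (-1.20), D330025C20Rik (-1.18), Pus10 (-1.14), Arhgap32 (-1.11), Usp2 (-0.60), Acsl1 (-0.55) and Hk1 (-0.53). Of these 22 genes, 9 passed in every fit with a heart left out and 4 in every alternative: Agt, Impa2, Ppp1r10 and Pus10.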

How the results depend on the processing

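No paired analysis was possible because the compared groups share no heart number. The count for Ant1 vector minus control vector in knockout hearts, 842 genes, became 513 with no low-count filter, 1434 with DESeq2 and 237 with only the 2 compared groups in the fit; leaving out a heart gave 222 to 1050. With DESeq2 size factors 821 of 842 called genes were shared. From libraries a and b alone 767 genes passed (378 higher and 389 lower, against 338 and 504), 474 of them shared. The 77 genes whose vector change differed between knockout and wild type hearts became 45 with no filter, 369 with DESeq2 and 10 from libraries a and b, and ran between 15 and 172 with a heart left out. The 219 genes of the knockout against knockout ND6 difference became 440 with DESeq2, 1.3e+02 from libraries a and b and 27 with hearts 61 and 91 as Ant1 vector hearts, and ran between 57 and 569 with a heart left out. The cause was not tested. Among 1455 results for single genes, 1083 kept direction and side of the threshold, 355 kept only direction and lost the call, 8 gained it and 9 turned sign: Nppa -0.0357 and -0.0459 without hearts 20 and 36 (range -0.0459 to 0.0943 with a heart left out), Ankrd1 0.049 without heart 38 (range -0.127 to 0.049), and, after adjustment for library table, Otud1 -0.408, Slc25a31 0.473, Ankrd1 0.145, Yme1l1 0.0389, Ccnd1 -0.0664 and Mylpf -0.0225. Depth limits genes near the filter; Slc25a4 in control vector hearts rests on 10 to 62 counts.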

Other observations

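Clock-controlled genes held 1 rise and 2 falls among 18 (16.7% called, against 5.47% of all genes). Usp2, a deubiquitinase with a strong daily rhythm, stood at 257, 237, 268 and 227 CPM in Ant1 vector knockout hearts and at 323, 302 and 342 CPM in control vector knockout hearts (log2 change -0.38 ± 0.07 SE, adjusted p = 0.00739). Dbp, a clock output factor, held 86.8, 125.98, 111.6 and 105.8 CPM with the Ant1 vector and 174.6, 164.7 and 165.2 CPM with the control vector (adjusted p = 0.0244). Every Ant1 vector heart lay below every control vector heart for both genes. The clock repressor gene Cry1 was 1.90-fold higher (adjusted p = 0.0393). Dbp lost its call without hearts 20, 35, 36 or 38 (highest adjusted p 0.0724) and Cry1 without hearts 22, 27, 35, 36 or 38 (highest 0.125). Cry1 had a log2 change of 0.26 with library table adjusted for (adjusted p = 0.926), and from libraries a and b alone Dbp had an adjusted p of 0.163. The hour of collection is not given in the labels, and its part in these values was not tested.

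Complement and inflammation genes had 2 rises and 0 falls among 20 (10.0% called, against 5.47% of all genes). Serping1, which encodes the C1 inhibitor of complement, stood at 25.8, 31.6, 28.6 and 21.8 CPM in Ant1 vector knockout hearts and at 18.6, 14.98 and 15.2 CPM in control vector knockout hearts (1.65-fold higher, adjusted p = 0.0188). The chemokine gene Ccl7 held 6.997, 5.13, 5.04 and 0.998 CPM with the Ant1 vector and 0.915, 1.27 and 1.36 CPM with the control vector (3.79-fold higher, adjusted p = 0.0307). As with Gdf15, heart 27 lay inside the control vector range and the other Ant1 vector hearts above it. Here too heart 27 and its library tables cannot be told apart. Serping1 lost its call without hearts 36 or 38 (highest adjusted p 0.0953), and Ccl7 without any heart but 27 (highest 0.102). Serping1 had a log2 change of 0.25 in that adjusted fit (adjusted p = 0.726). The list of 23 cell cycle genes held 2 rises and 0 falls (8.70% called), Ccnd1 (adjusted p = 0.0244) and Mcm3 (0.048). Both calls were lost without hearts 22, 35, 36 or 38 (highest 0.203), and after adjustment for library table (adjusted p = 0.95 and 0.533).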
